A study of Mus musculus with 8 samples.

Results

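The cytosolic ribosomal proteins are the protein subunits of the ribosomes that translate nuclear messages. Their genes were taken from the gene table by annotation: protein-coding genes with symbols of the form Rpl or Rps followed by a number, plus Rpsa, without pseudogenes and without the Rps6k kinases. The rule found 80 genes among the 44674 genes of the table, and 78 of them passed the filter on low counts. They comprised 43 genes of the large subunit, 31 of the small subunit and 6 ribosomal protein-like copies (Rpl3l, Rpl7l1, Rpl10l, Rpl22l1, Rpl39l and Rps27l).

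Brown adipose tissue (BAT) was compared between 4 Ox1RΔSERT mice and 4 control littermates. All 8 animals carried loxP-flanked alleles of the orexin receptor gene Hcrtr1 (Ox1R fl/fl), and the Ox1RΔSERT mice also carried 1 Sert-Cre allele that the controls lacked. The Cre is driven by the serotonin transporter gene, so the deletion is aimed mostly at serotonergic neurons of the raphe, with activity also reported in some cortical and thalamic areas, and not at BAT. All were males of the C57BL/6N strain on a high-fat diet (HFD) from week 4 to week 18 of age, and BAT was collected when a hyperinsulinemic-euglycemic clamp ended, at a time the labels give as 14 to 16 h without saying from when it is counted, so every sample had been exposed to insulin infusion. The libraries were poly-A selected and stranded. Total estimated counts were 39522000, 35853000, 50021000 and 48106000 in control mice 1 to 4. They were 42513000, 50063000, 41563000 and 42607000 in Ox1RΔSERT mice 1 to 4, so the depth of the groups overlapped. Mice are numbered within their group, and the numbers pair no animals.

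Each ribosome holds a small 40S and a large 60S subunit, and most of their proteins are present once per particle. The messages of nearly all of them begin with a C followed by a stretch of pyrimidines, the 5′ terminal oligopyrimidine (TOP) motif, through which insulin and the kinase complex mTORC1 control how strongly they are translated. That control acts largely on translation, which counts of poly-A RNA do not measure.

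The targeted gene could not check the labels in this tissue. Hcrtr1 had 0, 5, 3 and 2 counts in control mice 1 to 4 and 4, 0, 5 and 3 counts in Ox1RΔSERT mice 1 to 4, and it did not pass the filter. Both groups lay near 0. The tissue label was checked by markers: Ucp1, the uncoupling protein of brown adipocytes, had 3731, 3806, 4631 and 4895 CPM (counts scaled to library size after TMM normalization) in control mice 1 to 4. It had 2513, 3817, 2903 and 2513 CPM in Ox1RΔSERT mice 1 to 4.

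Ribosomal protein messages were abundant, and their level differed widely between genes. On the length-corrected TPM scale, 71 of the 80 genes had a mean over the 8 mice above 50 TPM, between 71.5 TPM (Rpl37) and 750 TPM (Rps29). Rps29 and Rps2 of the small subunit, at 750 and 405 TPM, and Rpl41, Rpl13a and Rpl23a of the large subunit, at 527, 378 and 373 TPM, were the 5 most abundant. The median was 157 TPM for the large subunit and 185 TPM for the small subunit. The summed TPM of the large subunit over that of the small subunit was 1.12 ± 0.0240 (SD, n = 4) in control mice and 1.12 ± 0.0115 (SD, n = 4) in Ox1RΔSERT mice, so the balance between subunits differed by less than the spread between mice. Several of the lowest genes share sequence with copies elsewhere in the genome, as described further on.

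**Figure D1:**
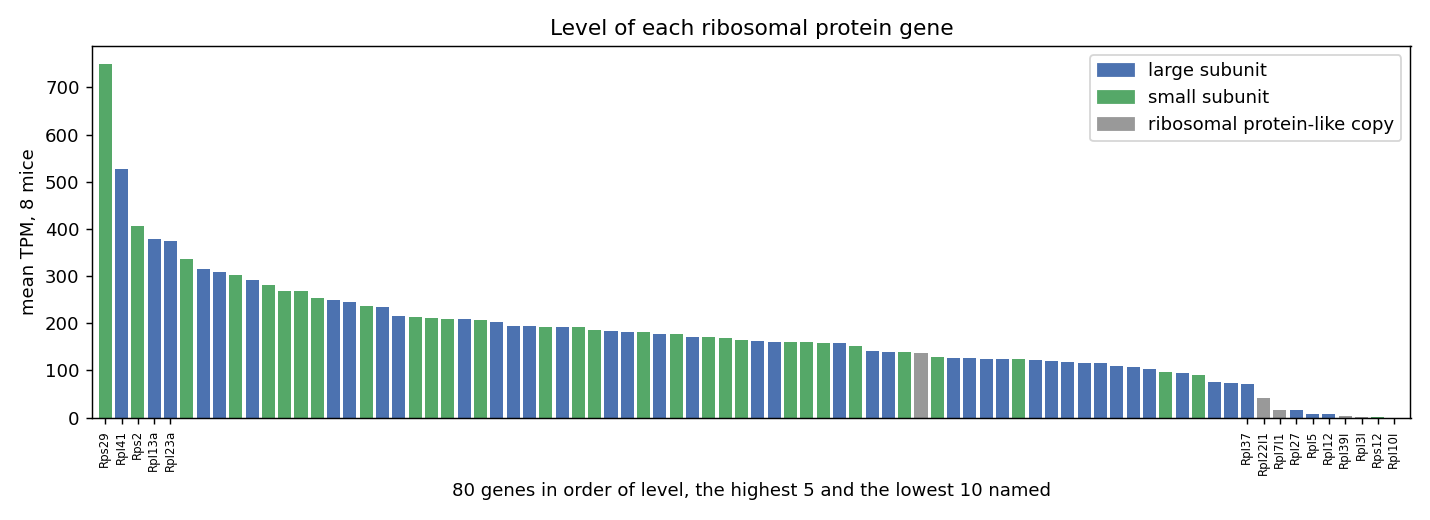
Mean TPM over the 8 mice of each of the 80 ribosomal protein genes, in order of level and coloured by subunit, with the ribosomal protein-like copies in grey. Rps29 stands highest at 750 TPM, and Rpl10l is listed at 0.

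A looser feature than the TOP motif was counted at the start of these genes, a pyrimidine run anywhere in a window around the annotated start, with no C required at the start itself. RefSeq start-site windows of 30 bases, 15 before the start site and 15 from it on, were available for 61 of the 80 genes. A run of at least 8 bases that are each C or T, on the gene's own strand, was found in at least 1 window of 26 of the 61 genes. Counted by window, it was found in 37.0% of 73 ribosomal protein windows and in 12% of the 32851 windows of all genes. The windows below, all from build GRCm38.p6, show examples with such a run across the start (Rps6, Rps18, Rps27 and Rpl28), then the genes that the comparison turns on (Rpl12, Rps2 and Rpl3l). The longest run of C and T is in capitals.
Rps6: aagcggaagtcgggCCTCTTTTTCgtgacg
Rps18: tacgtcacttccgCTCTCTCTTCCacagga
Rps27: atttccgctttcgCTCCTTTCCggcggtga
Rpl28: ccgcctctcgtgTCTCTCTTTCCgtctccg
Rpl12: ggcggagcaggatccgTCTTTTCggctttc
Rps2: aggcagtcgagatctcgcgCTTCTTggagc
Rpl3l: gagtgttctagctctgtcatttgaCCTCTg

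The windows lie at chr4:86857353-86857382 (minus strand) for Rps6, chr17:33955651-33955680 (minus) for Rps18, chr3:90213634-90213663 (minus) for Rps27, chr7:4792950-4792979 (plus) for Rpl28, chr2:32961697-32961726 (plus) for Rpl12, chr17:24720048-24720077 (plus) for Rps2 and chr17:24727811-24727840 (plus) for the first of the Rpl3l starts. The run measured 10 bases in Rps6, 11 in Rps18, 9 in Rps27 and 11 in Rpl28, and it measured 7 in Rpl12, 6 in Rps2 and 5 in Rpl3l. An annotated start can lie some bases from the start used in BAT, so a window without a run says only that these letters are absent from it.

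No ribosomal protein gene was called between the groups. In edgeR's quasi-likelihood test with Benjamini-Hochberg adjustment over all 14489 tested genes, 0 of 78 members passed an adjusted p of 0.05, beside 0% of all tested genes. At an unadjusted p under 0.05, 1 member was higher and 0 were lower, where 10.2% of all tested genes were higher and 4.96% lower. DESeq2 called 265 genes across the table (1.1%), and 0 of them were members, with 1 member higher and 0 lower at an unadjusted p under 0.05, beside 7.56% and 3.09% of all genes tested by DESeq2. The groups did not overlap for 1 member that was lower in Ox1RΔSERT mice and for 0 that were higher, beside 2.81% and 2.69% of all tested genes. The median log2 fold change of the members was 0.03, beside 0.00 for all tested genes, and 48 members were on the positive and 30 on the negative side. Log2 fold changes of 75 of the 78 lay within 0.25 of 0, and the other 3 were Rpl3l, Rpl12 and Rps27. These counts are small and moved with single mice. At an unadjusted p under 0.05, 0 members were higher without control mouse 4 (4.84% of all tested genes) or Ox1RΔSERT mouse 4 (5.07%), and 2 without Ox1RΔSERT mouse 2 (13.9%). Without control mouse 2 the count was 1 (9.5%), but that member was a ribosomal protein-like copy, and 0 genes of the large subunit were higher. Without control mouse 1, 1 member was lower, beside 6.54% of all tested genes. Members without overlap on the lower side numbered 3 without Ox1RΔSERT mouse 4, beside 3.66% of all tested genes. They numbered 2 without control mouse 1 (7.22%), control mouse 3 (4.21%) or Ox1RΔSERT mouse 2 (8.64%). On the higher side they numbered 1 without control mouse 2 (6.07% of all tested genes) and 2 without control mouse 3 (4.34%) or Ox1RΔSERT mouse 2 (7.32%). In bulk tissue, fewer cells of a type and less RNA per cell cannot be told apart. The scale matters for the sign: with library size alone the median of all tested genes shifted to 0.22 and that of the members to 0.26, and all 78 members were then positive. By limma on log2(TPM + 1) these medians were 0.26 and 0.34, and all 77 members tested there were positive. Every negative log2 fold change given for a member over all 8 mice is therefore positive on these scales where it was tested, and signs are relative to TMM.

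Many members were high or low in the same mice. Of the 78 tested members, 59 had their highest CPM of the 8 mice in Ox1RΔSERT mouse 4 and 12 had it in control mouse 2. The lowest CPM fell in Ox1RΔSERT mouse 1 for 37 members and in control mouse 1 for 23. The median deviation of the members from their own 8-mouse mean was -0.10, 0.11, -0.01 and -0.04 on the log2 scale in control mice 1 to 4. It was -0.14, -0.05, -0.02 and 0.25 in Ox1RΔSERT mice 1 to 4. On this scale, after TMM, the highest and the lowest mouse were both Ox1RΔSERT mice, and the control values lay between them. Without Ox1RΔSERT mouse 4 the median log2 fold change of the members was -0.06 and 18 of 78 were positive. Without Ox1RΔSERT mouse 1 it was 0.07 and 61 were positive.

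**Figure D2:**
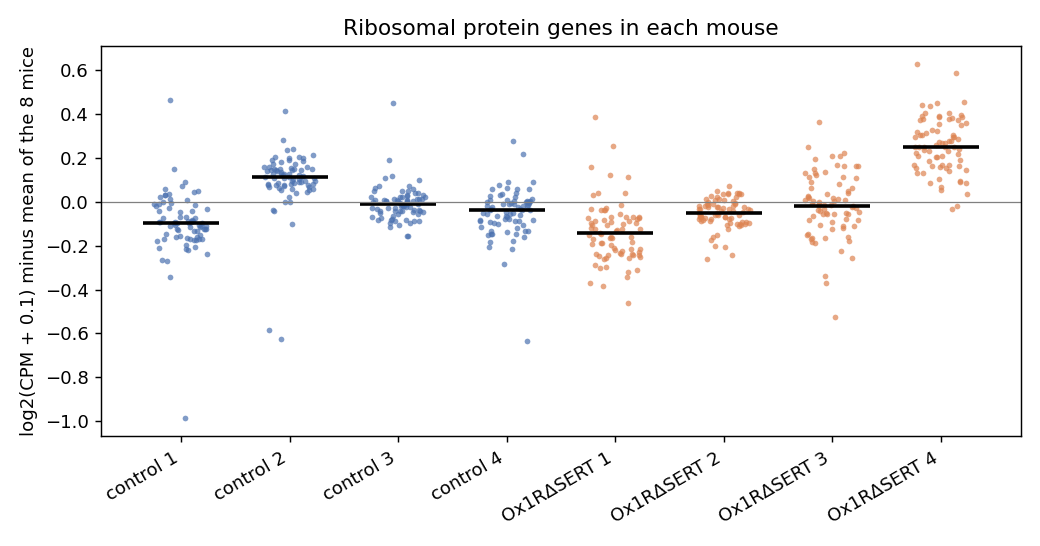
Deviation of each tested ribosomal protein gene from its own 8-mouse mean, on the log2(CPM + 0.1) scale, in each mouse; each point is a gene and the bar is the median over the 78 tested genes. Rpl3l is left out of the points for its wide range. The medians run from -0.14 (Ox1RΔSERT mouse 1) to 0.25 (Ox1RΔSERT mouse 4).

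The share of all counts on the 80 genes was 0.786%, 0.820%, 0.814% and 0.777% in control mice 1 to 4. It was 0.876%, 0.765%, 0.922% and 1.20% in Ox1RΔSERT mice 1 to 4. The groups overlapped through Ox1RΔSERT mouse 2, which was the lowest of all 8. Counts from the mitochondrial genome made up 42.9% ± 2.87 (SD, n = 4) of control libraries and 37.1% ± 5.13 (SD, n = 4) of Ox1RΔSERT libraries. The share of the counts outside the mitochondrial genome was 1.31%, 1.54%, 1.41% and 1.36% in control mice 1 to 4 and 1.37%, 1.38%, 1.397% and 1.81% in Ox1RΔSERT mice 1 to 4. On that scale 3 of the Ox1RΔSERT mice lay inside the control range, and Ox1RΔSERT mouse 4 lay above it.

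Markers of other cells also differed between single mice. The 10 leukocyte and macrophage markers summed to 174, 255, 142 and 113 CPM in control mice 1 to 4. They summed to 729, 187, 202 and 929 CPM in Ox1RΔSERT mice 1 to 4, with Lyz2, the lysozyme of myeloid cells, the most abundant by TPM and no marker at 0 in all mice. All 10 were higher at an unadjusted p under 0.05, beside 10.2% of all tested genes, edgeR called 0 and DESeq2 called 6. The 10 became 6 without control mouse 4 (4.84% of all tested genes higher) or without Ox1RΔSERT mouse 4 (5.07%). Of this list, Ptprc, Fcgr1 and Trem2 had already been reported by the authors as significantly regulated in the same BAT comparison. The counts for the leukocyte and macrophage list were therefore partly known beforehand and are no independent test. The 4 fibroblast markers, with the collagen gene Col3a1 the most abundant by TPM, summed to 2460 and 5276 CPM in Ox1RΔSERT mice 1 and 4 and to between 354 and 964 CPM in the other 6. All 4 were higher at an unadjusted p under 0.05, edgeR called 0 and DESeq2 called 1, beside the same 1.1%. The 5 markers of dividing cells summed to 27.5 and 34.4 CPM in the same 2 mice and to at most 9.42 CPM in the others. Of these markers, Cdk1 was the most abundant by TPM and Mki67 by CPM. All 5 were higher at an unadjusted p under 0.05, and edgeR and DESeq2 called 0. The 5 became 0 without control mouse 1, Ox1RΔSERT mouse 1 or Ox1RΔSERT mouse 4, and 1 without control mouse 3 or 4. The fibroblast and dividing cell counts stand beside the same 10.2% of all tested genes, and beside 4.84% to 13.9% with single mice left out. After TMM, 0 genes had an unadjusted p under 0.05 among 5 adipocyte, 4 endothelium and 4 red blood cell markers, 2 tested of 8 for T, B and NK cells, 3 tested of 4 for plasma cells and 3 tested of 4 for nerve. With library size alone 1 plasma cell and 1 endothelium marker were higher, beside 20.8% of all tested genes. By limma on log2(TPM + 1) 3 endothelium, 1 adipocyte and 1 plasma cell marker were, beside 22.7%. With single mice left out, these lists had between 0 and 2 genes at an unadjusted p under 0.05 each. Of all tested genes, 4.84% to 13.9% were then higher and 2.02% to 8.5% lower. The part of these cells in the ribosomal protein levels was not tested.

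Rpl12 (ENSMUSG00000038900, chr2:32961559-32965345, plus strand), a protein of the stalk base of the large subunit, was the member with the lowest p. Its CPM was 6.43, 4.88, 7.76 and 6.39 in control mice 1 to 4 and 8.82, 7.29, 8.62 and 10.2 in Ox1RΔSERT mice 1 to 4. The groups overlapped, because Ox1RΔSERT mouse 2 lay below control mouse 3. The log2 fold change was 0.45 ± 0.17 (SE), with an edgeR adjusted p of 0.316 and an exact two-sided permutation p of 0.0571, where 0.0286 is the smallest that 70 assignments allow. Without control mouse 2, control mouse 4 or Ox1RΔSERT mouse 4, 0 genes of the large subunit, Rpl12 included, had an unadjusted edgeR p under 0.05. The level was unusually low for a ribosomal protein, at 7.44 TPM, and 46.8% of the 100-base stretches of its coding transcripts also occur in transcripts of other genes. The pseudogene Gm10275 shares all of those stretches. It held 83.3, 88.8, 83.0 and 79.6 CPM in control mice 1 to 4 and 86.5, 77.1, 79.0 and 118 CPM in Ox1RΔSERT mice 1 to 4, far more than Rpl12 itself. Summed with its copies, Rpl12 had a log2 fold change of 0.14 ± 0.14 (SE) and an edgeR adjusted p of 0.631, and the count of members at an unadjusted p under 0.05 became 0. That sum, and the copies named here and below, were chosen after the values were seen.

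Rps2 (ENSMUSG00000044533, chr17:24718116-24721929, plus strand), an abundant protein of the small subunit, was the only member whose groups did not overlap. Its CPM was 365, 362, 358 and 364 in control mice 1 to 4 and 262, 337, 354 and 351 in Ox1RΔSERT mice 1 to 4. All 4 Ox1RΔSERT mice lay below all 4 controls, but 3 of them by little. The log2 fold change was -0.15 ± 0.11 (SE), with an edgeR adjusted p of 0.515, and the exact permutation test gave 0.0286, the lower bound named above. Groups of 4 that do not overlap always give that value, so it adds nothing to the lack of overlap. Without Ox1RΔSERT mouse 1 the log2 fold change was -0.06. With library size alone it was 0.06 and by TPM with limma 0.16, on the other side of 0. Summed with its copies it was -0.15, and the groups still did not overlap.

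Other members with the lowest p values were small in effect. Rpl10a of the large subunit had 48.8, 57.2, 59.4 and 53.1 CPM in control mice 1 to 4 and 64.1, 57.9, 58.6 and 75.5 CPM in Ox1RΔSERT mice 1 to 4. The groups overlapped, and the log2 fold change was 0.23 with an edgeR adjusted p of 0.351. Rpl10, which joins the large subunit late in its assembly, had a log2 fold change of 0.20 and an edgeR adjusted p of 0.421. It shares 68.4% of its stretches with its copy Rpl10-ps3, and summed with its copies it had 0.05. Rpl31, Rps4x, Rps26, Rpl37a and Rps18 had log2 fold changes of 0.21, 0.17, 0.15, 0.16 and 0.14. On the negative side, Rpl24, Rpl28, Rpl36 and Rpl19 had log2 fold changes of -0.11, -0.09, -0.13 and -0.10. None of these passed the test.

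Of the abundant members not yet given, Rps29 had 146, 170, 141 and 147 CPM in control mice 1 to 4 and 116, 147, 155 and 156 CPM in Ox1RΔSERT mice 1 to 4. Rpl41, the smallest protein of the ribosome, had 187, 211, 188 and 189 CPM in control mice 1 to 4 and 169, 195, 223 and 242 CPM in Ox1RΔSERT mice 1 to 4. The groups overlapped in both genes, with Ox1RΔSERT mouse 1 lowest in each. Log2 fold changes were -0.07 for Rps29, 0.10 for Rpl41, -0.07 for Rpl13a and -0.08 for Rpl23a.

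Rps6, the substrate of S6 kinase downstream of mTORC1, had 155, 199, 178 and 184 CPM in control mice 1 to 4 and 155, 171, 154 and 192 CPM in Ox1RΔSERT mice 1 to 4. The values overlapped almost entirely (log2 fold change -0.09, edgeR adjusted p 0.715). Rpsa, which also serves as a laminin receptor, had a log2 fold change of -0.02, and Rps27a, made as a fusion with ubiquitin, had 0.05. These counts say nothing of Rps6 phosphorylation.

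Several members share long stretches with copies, and how their reads were assigned between the genes cannot be told from the counts. Of the 80 genes, 72 share at least 1 stretch of 100 bases with another gene's transcripts, and 16 share more than 50% of theirs. Rps12 was listed at 0 in 7 mice and at 2.05 CPM in control mouse 4. Its copy Rps12-ps3, annotated as protein-coding, held 122, 142, 128 and 121 CPM in control mice 1 to 4 and 123, 127, 152 and 179 CPM in Ox1RΔSERT mice 1 to 4, and 56.3% of the stretches of Rps12 occur in it. Ox1RΔSERT mouse 4 was again the highest. Summed with its copies, Rps12 had a log2 fold change of 0.17 and an edgeR adjusted p of 0.532.

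Rps27, a small-subunit protein with a zinc finger, varied against its near copy. It had 26.8, 71.0, 72.7 and 34.2 CPM in control mice 1 to 4 and 54.6, 52.4, 68.4 and 69.0 CPM in Ox1RΔSERT mice 1 to 4. Its near copy Rps27rt had 36.9, 14.997, 2.94 and 43.0 CPM in control mice 1 to 4 and 9.93, 19.5, 4.29 and 20.7 CPM in Ox1RΔSERT mice 1 to 4. Rps27 was lowest in control mice 1 and 4, where Rps27rt was highest. The sum of the pair was 63.7, 85.9, 75.7 and 77.2 CPM in control mice 1 to 4 and 64.6, 71.8, 72.7 and 89.7 CPM in Ox1RΔSERT mice 1 to 4, and its log2 fold change was -0.02 where Rps27 alone had 0.26. Rpl5 and Rpl27 were listed at 7.999 and 16.1 TPM, and their pseudogenes Gm15500 and Rpl27-ps3 at 134 and 172 TPM.

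**Figure D3:**
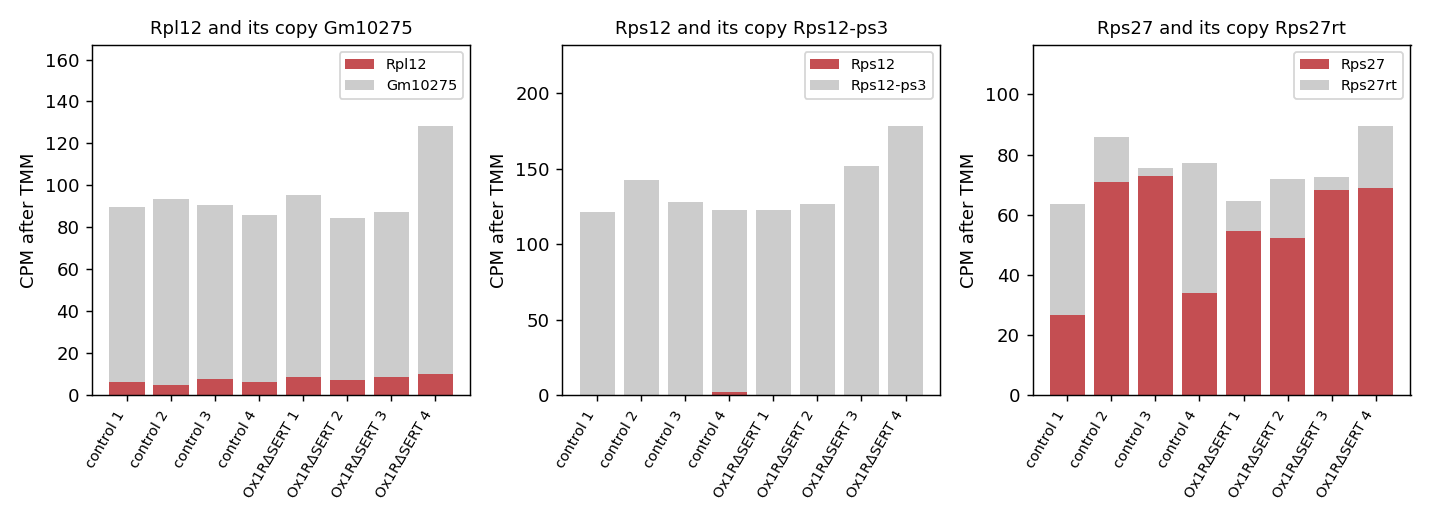
CPM after TMM of Rpl12, Rps12 and Rps27 (red) with the copy that shares their sequence stacked on top (grey), in each mouse. Rps12 is at 0 in 7 mice while Rps12-ps3 lies between 121 and 179 CPM.

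Some ribosomal protein-like copies differ from their parents in where they are made. Rpl3l (ENSMUSG00000002500, chr17:24727820-24736143, plus strand) replaces Rpl3 in ribosomes of skeletal and heart muscle. It had 0.157, 7.10, 0.0631 and 0.226 CPM in control mice 1 to 4 and 9.69, 0.349, 0.135 and 0.671 CPM in Ox1RΔSERT mice 1 to 4. It was high in 1 mouse of each group, control mouse 2 and Ox1RΔSERT mouse 1. The 9 skeletal muscle markers, with Acta1 the most abundant by TPM, summed to 7.85, 1573, 2.50 and 4.29 CPM in control mice 1 to 4 and to 2228, 40.7, 9.29 and 176 CPM in Ox1RΔSERT mice 1 to 4. The same 2 mice had the highest sums. The log2 fold change of Rpl3l was 0.55 ± 1.62 (SE), falling to -2.25 when Ox1RΔSERT mouse 1 was left out and reaching 4.15 when control mouse 2 was. With control mouse 2 left out, 1 of the ribosomal protein-like copies was higher at an unadjusted p under 0.05, and edgeR called 0. The part of muscle tissue in the Rpl3l values was not tested. Its parent Rpl3 had a log2 fold change of -0.03.

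**Figure D4:**
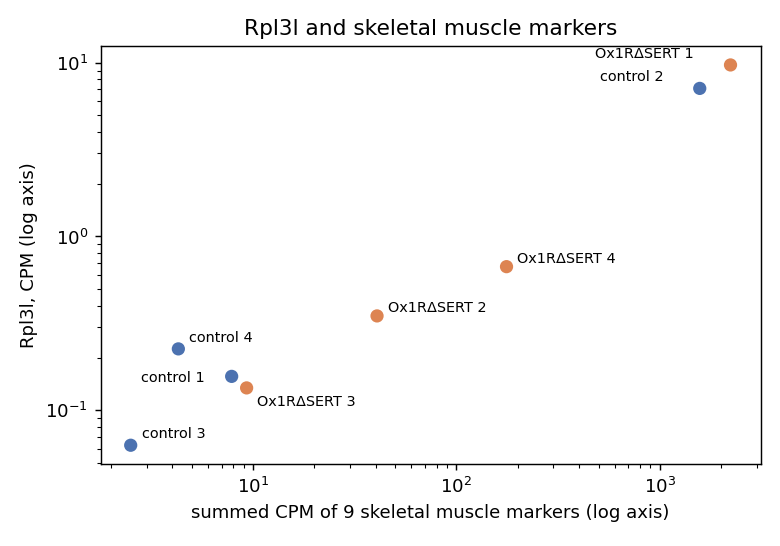
Rpl3l CPM against the summed CPM of 9 skeletal muscle markers in the 8 mice, both on log axes, control mice in blue and Ox1RΔSERT mice in orange. Control mouse 2 and Ox1RΔSERT mouse 1, at 7.10 and 9.69 CPM of Rpl3l, stand apart at marker sums of 1573 and 2228 CPM.

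The other copies were measured at low to middling levels. Rpl7l1, which acts in assembly of the large subunit, had 45.9, 55.8, 59.0 and 62.7 CPM in control mice 1 to 4 and 43.4, 53.0, 46.3 and 50.6 CPM in Ox1RΔSERT mice 1 to 4. The groups overlapped, and its log2 fold change of -0.21 (edgeR adjusted p 0.390) was the most negative among the members. Its parent Rpl7 had 0.05. Rps27l, a copy induced by p53, had -0.14 at 136 TPM. Rpl22l1 had 0.02 at 41.5 TPM beside 0.01 for its parent Rpl22 at 118 TPM, and Rpl39l had 0.12 at 4.11 TPM beside 0.21 for Rpl39 at 119 TPM. Rpl10l, known from the testis, was listed at 0 in all 8 mice.

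Other proteins of the ribosome fall outside the symbol rule. Of the stalk proteins, Rplp0 had 222, 273, 261 and 256 CPM in control mice 1 to 4 and 231, 241, 276 and 304 CPM in Ox1RΔSERT mice 1 to 4, with overlapping groups. Log2 fold changes were 0.06 for Rplp0, 0.09 for Rplp1 and -0.12 for Rplp2. Fau, made as a fusion with a ubiquitin-like protein, had -0.16, and Rack1, a scaffold on the small subunit, had 0.13. edgeR and DESeq2 called 0 of the 3 stalk genes, and 0 had an unadjusted p under 0.05 in either. By limma on log2(TPM + 1) and log2(TPM + 0.1), 1 was higher at an unadjusted p under 0.05, beside 22.7% and 22.9% of all tested genes. All 3 were positive by limma and with library size alone.

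Other messages with the TOP motif were set beside the members. Of 21 such genes, edgeR and DESeq2 called 0. At an unadjusted p under 0.05, 1 was higher (Hnrnpa1, log2 fold change 0.44), beside 10.2% of all tested genes, and the median log2 fold change was 0.01. With library size alone 5 were higher and the median was 0.22, and by limma on log2(TPM + 1) 10 were higher and the median was 0.33. On these scales 20.8% and 22.7% of all tested genes were higher at an unadjusted p under 0.05, and the counts given below for other lists on the same scales stand beside those shares. The elongation factor Eef1a1 had 1865, 1963, 2006 and 2003 CPM in control mice 1 to 4 and 1756, 1960, 2035 and 2110 CPM in Ox1RΔSERT mice 1 to 4. The lowest and the highest value were again in Ox1RΔSERT mice 1 and 4. Eef2 had a log2 fold change of 0.01, and Tpt1 had -0.15. Of 6 non-coding TOP host genes, 1 was higher at an unadjusted p under 0.05 (Snhg15, 0.54), beside the same 10.2%, the median was 0.17, and Gas5 had 0.15. That count was 0 with no filter and without control mouse 1, 3 or 4 or Ox1RΔSERT mouse 1, 3 or 4, and it was 2 with library size alone and 4 by limma on log2(TPM + 1).

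Genes that build ribosomes or regulate them were counted the same way, and edgeR and DESeq2 called 0 in each list. Over all tested genes, 10.2% were higher and 4.96% lower at an unadjusted p under 0.05. With single mice left out these shares ran from 4.84% to 13.9% and from 2.02% to 8.5%. With no filter they were 8.05% and 3.15%. The counts below stand beside these shares. Of 50 ribosome biogenesis genes, 2 were higher at an unadjusted p under 0.05 and 0 lower, beside 10.2% and 4.96% of all tested genes. Those higher were Noc4l and Polr1b (log2 fold changes 0.33 and 0.30), and the median of the list was 0.05. These counts depend on the scale and on single mice: 12 were higher with library size alone, 15 by limma on log2(TPM + 1), and 0 with upper-quartile factors, with no filter and without control mouse 2, control mouse 4, Ox1RΔSERT mouse 1 or Ox1RΔSERT mouse 4. With at least 10 counts in every mouse 4 were higher. Without Ox1RΔSERT mouse 2, 3 were higher and 2 lower, beside 13.9% and 8.5% of all tested genes. Without Ox1RΔSERT mouse 3, 1 was higher and 3 lower, beside 13.1% and 5.97%. Without control mouse 1, 3 were lower, beside 6.54%. Of 54 tested initiation factors, 1 was higher and 5 lower, beside 10.2% and 4.96% of all tested genes, with a median of -0.05. The direction turned with the scale: 10 were higher and 0 lower with library size alone (median 0.17), and 13 higher and 0 lower by limma on log2(TPM + 1) (median 0.28). The 5 lower were 0 without control mouse 2 (4.22% of all tested genes lower), control mouse 4 (2.02%) or Ox1RΔSERT mouse 1 (2.13%). They were 1 without control mouse 3 (2.72%) or Ox1RΔSERT mouse 3 (5.97%), and 3 without Ox1RΔSERT mouse 4 (2.51%). They were also 3 with RLE factors, with DESeq2, with the members left out of the factors, with no filter and with at least 10 counts in every mouse. The 1 higher was 0 with no filter and without control mouse 2. It was 2 with at least 10 counts in every mouse and without control mouse 3 or Ox1RΔSERT mouse 3. Among 18 tested genes of the mTORC1 arm, 1 was higher: Myc, which drives ribosomal protein transcription, had 12.8, 6.88, 8.49 and 7.36 CPM in control mice 1 to 4 and 17.2, 9.65, 10.6 and 22.8 CPM in Ox1RΔSERT mice 1 to 4. The groups overlapped, with Ox1RΔSERT mice 1 and 4 highest, and the log2 fold change was 0.76 ± 0.31 (SE) with an edgeR adjusted p of 0.320. The count of higher genes in this arm was 4 with library size alone and 6 by limma on log2(TPM + 1), and it was 0 without control mouse 2, control mouse 4 or Ox1RΔSERT mouse 1. Without control mouse 1 or Ox1RΔSERT mouse 3, 1 gene was lower. Mtor, Eif4e, Eif4ebp1 and Larp1 had log2 fold changes of -0.02, -0.07, 0.05 and 0.10. The S6 kinase gene Rps6kb1 had 42.1, 41.8, 42.8 and 43.4 CPM in control mice 1 to 4 and 35.4, 41.1, 37.8 and 40.9 CPM in Ox1RΔSERT mice 1 to 4. Its groups did not overlap, yet the log2 fold change was -0.13 with an edgeR adjusted p of 0.404, while Rps6kb2 had 0.15. Of 9 tested Rps6k genes, 1 was higher at an unadjusted p under 0.05 (Rps6ka3, 0.42), where 3 were without control mouse 1 and 2 without Ox1RΔSERT mouse 2 or by limma on log2(TPM + 1).

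The mitochondrial ribosomal proteins, which build the separate ribosome that translates the mitochondrial genome, mostly had negative log2 fold changes after TMM. Their 78 genes summed to 3708, 3580, 3488 and 3519 CPM in control mice 1 to 4 and to 2521, 3516, 3321 and 2797 CPM in Ox1RΔSERT mice 1 to 4. Only Ox1RΔSERT mouse 2 lay in the control range. edgeR and DESeq2 called 0 of the 78, 20 were lower and 0 higher at an unadjusted p under 0.05, beside 4.96% and 10.2% of all tested genes, and 77 had a negative log2 fold change, with a median of -0.21. The groups did not overlap for 13, all lower, beside 2.81% of all tested genes. The 20 became 42 without Ox1RΔSERT mouse 2 (8.5% of all tested genes lower) and 27 without Ox1RΔSERT mouse 3 (5.97%). They became 6 without Ox1RΔSERT mouse 1 (2.13%) and 7 without Ox1RΔSERT mouse 4 (2.51%). They became 8 without control mouse 3 (2.72%) or 4 (2.02%) and 10 without control mouse 1 (6.54%) or 2 (4.22%). The difference between the families was not tested. The counts of lower genes and the sign depend on the scale. With library size alone 1 was lower, beside 0.607% of all tested genes, 39 were positive and 39 negative, and the median was -0.01. By limma on log2(TPM + 1) 0 were lower (0.195% of all tested genes), 67 were positive and 11 negative, and the median was 0.11 beside 0.34 for the cytosolic family. Brown adipocyte markers summed to 5982, 6933, 7833 and 8027 CPM in control mice 1 to 4 and to 3998, 6206, 5747 and 4144 CPM in Ox1RΔSERT mice 1 to 4. Cox8b led these markers on the TPM scale, but in CPM Ucp1, given earlier, was the largest part of the sum in every mouse. All 8 markers had a negative log2 fold change, with a median of -0.42, between -1.22 (Dio2) and -0.05 (Prdm16). Without control mouse 1, 6 of 8 were negative, and 7 were without Ox1RΔSERT mouse 1 or 3. With library size alone 6 of 8 were (median -0.22) and by limma on log2(TPM + 1) 5 of 8 were (median -0.10). edgeR and DESeq2 called 0 of these 8. At an unadjusted p under 0.05, 3 were lower, beside 4.96% of all tested genes. With library size alone 1 was lower and by limma on log2(TPM + 1) 0 were. The 3 became 0 without control mouse 4, 1 without control mouse 3 or Ox1RΔSERT mouse 1, and 2 without control mouse 2 or Ox1RΔSERT mouse 4. The part of brown adipocytes in the mitochondrial family's values was not tested.

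**Figure D5:**
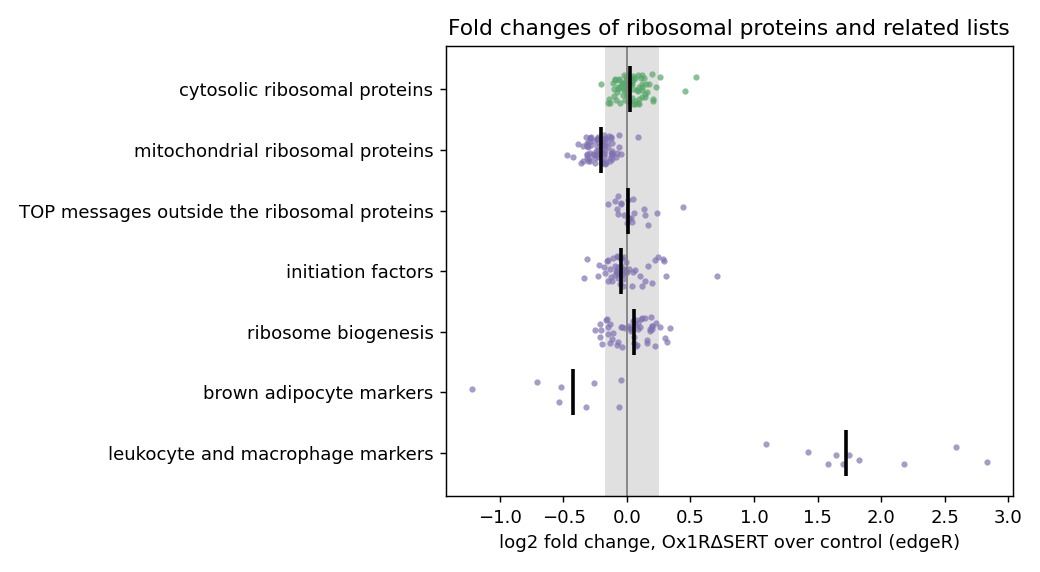
Log2 fold change (edgeR, Ox1RΔSERT over control) of each gene of the cytosolic ribosomal proteins and of related lists; black bars are medians, the grey band is the middle range of all 14489 tested genes between their quartiles and the grey line their median. The cytosolic family has a median of 0.03 and the mitochondrial family one of -0.21; with library size alone these are 0.26 and -0.01, and by limma on log2(TPM + 1) 0.34 and 0.11.

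The genes outside the family most like it over the 8 mice, by Pearson r of log2(CPM + 0.1) with the mean z-score of the members, were Gm7536 (r = 0.945), Ssr2 (r = 0.942), Gm15500 (r = 0.942), Ece2 (r = 0.939) and Cenpw (r = 0.925). Of these, 2 share stretches with members: 32.6% of the stretches of Rpl27a occur in Gm7536 and 42.9% of those of Rpl5 in Gm15500. Cenpw lay under 1 CPM in all mice. These were the highest of all tested genes over 8 points that share libraries, so they are a description only.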

How the data were processed

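The authors quantified reads per gene with Salmon 0.14.1 and also listed STAR and DESeq2 1.26.0 (build GRCm38.p6, per the labels). Columns of the authors' own comparisons were not used. The deposited tables hold estimated counts and TPM for 44674 genes, of which 44118 matched the GENCODE annotation used for names and types. Estimated counts were rounded to whole numbers, filtered with filterByExpr, scaled by TMM and tested with edgeR 4.0.16 (glmQLFit, glmQLFTest) in R 4.3.3, with no covariate and Benjamini-Hochberg adjustment over all tested genes. Standard errors come from the F statistic. Single genes were also tested by exact permutation over the 70 assignments of 4 mice against 4. DESeq2 1.42.0 and limma 3.58.1 (genes with at least 1 TPM in 4 mice) served as alternatives. Mice were numbered in the order of the records. Shared stretches of 100 bases were found in GENCODE transcripts. The steps were also run on simulated counts with known changes larger than those of the members, which says nothing of how well smaller changes are found. Genes were named by abundance, lowest p, lack of overlap, being a copy or its parent, other roles, and failing the filter. Of these, 2 genes are not reported here. The members and gene lists were chosen with earlier results of these data known.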

Additional observations from a re-analysis of the deposited data

Results flagged for a closer look

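In 9 of the 69 sets of 4 mice looked at, 1 mouse lay so far from the other 3 that its gap to the nearest, divided by the whole range, passed 0.829. Chance alone does so in about 1 of 20 sets, and the genes share mice.

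Ox1RΔSERT mouse 4 was the highest in 4 cases. The share of counts outside the mitochondrial genome on the members was 1.81% there and at most 1.397% in the other 3 Ox1RΔSERT mice (ratio 0.945). The ratio was 0.857 for Rps26, 0.886 for Rpl7 and 0.863 for Rpl39, which had 72.2 CPM there and 45.7 CPM in the next Ox1RΔSERT mouse.

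Control mouse 2 was the highest of its group for Rpl41 (ratio 0.935), Rps18 (0.916) and Rpl3l (0.977). Rpl3l was also apart in Ox1RΔSERT mouse 1 (0.944), and both mice had the highest skeletal muscle marker sums. Rps12 was above 0 only in control mouse 4 among the controls (ratio 1).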

How the results depend on the processing

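edgeR called 0 genes under every scaling and filter tried, with each mouse left out and at an adjusted p of 0.1, and limma called 0, while DESeq2 called 265. Members called were 0 in each direction in all of these, in limma and in DESeq2. No paired analysis was possible because the labels give no shared replicate numbers.

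The scale moved the other counts. With library size alone, 10 members (12.8%, beside 20.8% of all tested genes) were higher at an unadjusted p under 0.05, 0 were without overlap on the lower side (0.483% of all tested genes), and the median log2 fold change was 0.26. With limma on log2(TPM + 1) and log2(TPM + 0.1), 24 were higher (31.2%, beside 22.7% and 22.9% of all tested genes), 0 were without overlap on the lower side (0.139%), and the median was 0.34 in both. The median of all tested genes was then 0.26 and 0.31. With no filter, 1 member was lower at an unadjusted p under 0.05, beside 3.15% of all tested genes. Summed with copies, chosen after seeing the data, 0 were higher at an unadjusted p under 0.05, beside 10.3% of all tested genes.

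With each mouse left out, members at an unadjusted p under 0.05 numbered 0 to 2 higher and 0 to 1 lower, beside 4.84% to 13.9% and 2.02% to 8.5% of all tested genes. Those without overlap numbered 0 to 2 higher and 1 to 3 lower, beside 2.99% to 7.32% and 3.25% to 8.64%. The median ranged from -0.06 to 0.07. The log2 ratio of mean summed shares was 0.24, 0.36 by TPM, 0.09 outside the mitochondrial genome, and 0.10 to 0.32 with each mouse left out.

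Log2 fold changes of single genes that changed sign with library size alone were Rps29 0.14, Rps2 0.0612, Rpl13a 0.16, Rpl23a 0.14, Rpl7l1 0.0051, Rps27l 0.0705, Rpl24 0.11, Rpl28 0.12, Rpl36 0.0783, Rpl19 0.12, Rpl3 0.19, Rpsa 0.19, Rps6 0.14, Rplp2 0.0874, Fau 0.0485, Tpt1 0.0819, Mtor 0.18, Rps6kb1 0.0815, Eif4e 0.15. By limma with pseudocount 1 they were Rps29 0.21, Rps2 0.16, Rpl13a 0.25, Rpl23a 0.23, Rpl7l1 0.13, Rps27l 0.17, Rpl24 0.22, Rpl28 0.21, Rpl36 0.15, Rpl19 0.21, Rpl3 0.30, Rpsa 0.31, Rps6 0.26, Rplp2 0.20, Fau 0.12, Tpt1 0.21, Mtor 0.29, Rps6kb1 0.20, Eif4e 0.32, and with pseudocount 0.1 they were Rps29 0.21, Rps2 0.16, Rpl13a 0.25, Rpl23a 0.23, Rpl7l1 0.13, Rps27l 0.18, Rpl24 0.22, Rpl28 0.21, Rpl36 0.15, Rpl19 0.21, Rpl3 0.30, Rpsa 0.31, Rps6 0.26, Rplp2 0.20, Fau 0.12, Tpt1 0.21, Mtor 0.31, Rps6kb1 0.21, Eif4e 0.33. With upper-quartile factors they were Rpl22l1 -0.0057, Rpl22 -0.0102, Eef1a1 -0.0139, Eef2 -0.0071, with no filter Rpl22l1 -0.013, Rpl22 -0.0151, Eef1a1 -0.0176, Eef2 -0.008, with DESeq2 Rpl22 -0.0001, Eef1a1 -0.0031 and summed with copies Rps27 -0.0177. With each mouse left out, those that changed sign ranged as follows: Rpl7 -0.0571 to 0.091, Rpl22 -0.0901 to 0.0631, Rplp0 -0.0196 to 0.11, Eef1a1 -0.0316 to 0.0547, Eef2 -0.0968 to 0.0844, Mtor -0.15 to 0.0741, Rpl39l -0.062 to 0.33, Rpl22l1 -0.22 to 0.16, Eif4ebp1 -0.0632 to 0.14, Rps29 -0.12 to 0.0159, Rpl3l -2.25 to 4.15, Rpl3 -0.0935 to 0.0154, Rpsa -0.072 to 0.0481, Rplp2 -0.26 to 0.0034, Rpl39 -0.0101 to 0.29, Rps27a -0.0958 to 0.11.

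The cause was not tested for any of these. No named gene passed an adjusted p of 0.05 under any of these settings.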
